A study of Capra hircus with 2 samples.

Results

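Hemoglobin chains and myoglobin are the globins that carry oxygen in red cells and store it in muscle. Their transcripts were followed in the goat (Capra hircus, Chinese Xuhuai breed) by RNA sequencing of longissimus thoracis, a back muscle. The study had 1 library of muscle at 6 months of age and 1 of fetal muscle taken at day 90 (gestation lasts 150 days). No treatment or genetic change is given for either stage, and how many animals went into a library is not stated. The sampling text of both libraries describes embryos, so how the 6-month muscle was taken is not known.

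The set held 4 transcript accessions, which were looked up in both deposited lists. They are the cattle RefSeq transcripts of alpha globin (HBA, NM_001077422), beta globin (HBB, NM_173917), fetal globin (HBG, NM_001014902) and myoglobin (MB, NM_173881). The deposited lists give accessions without gene names, and 0 of the 4 accessions occur in the goat RefSeq gene table used here (assembly ARS1.2). The names are those supplied with the set and were not checked against cattle records. Of the 4, 3 had reads in each library, out of 11663 accessions with reads in either library. The set was drawn up with the large fetal excess of HBA already known. The values of all members are therefore a description, and with 1 library per stage no test was possible.

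Hemoglobin is built from pairs of alpha-type and beta-type chains, each holding a heme group that binds oxygen. It fills red cells and their precursors. In ruminants the beta-type chain changes during development, and a fetal chain is replaced by an adult chain around birth. Myoglobin is a single-chain relative found in the cytoplasm of heart and skeletal muscle fibres, where it stores oxygen and eases its diffusion to the mitochondria. Whole muscle contains blood as well as fibres, so both kinds of globin transcript can be read from the same piece of tissue. In such bulk RNA, fewer cells of a type and less RNA per cell cannot be told apart.

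The alpha chain HBA and myoglobin stood in opposite order in the libraries. At 6 months, the muscle globin MB was far above the blood globins, whereas in the fetal library the alpha chain HBA was far above MB. The level per length is given as RPKM, the read count scaled to transcript length and to the unique reads of the library, as deposited. MB had an RPKM of 5357 in the 6-month library and 59.6 in the fetal library. HBA had an RPKM of 2.31 in the 6-month library and 4464 in the fetal library. The beta chain HBB was low in both, and the fetal chain HBG had no reads in either.

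**Figure D1:**
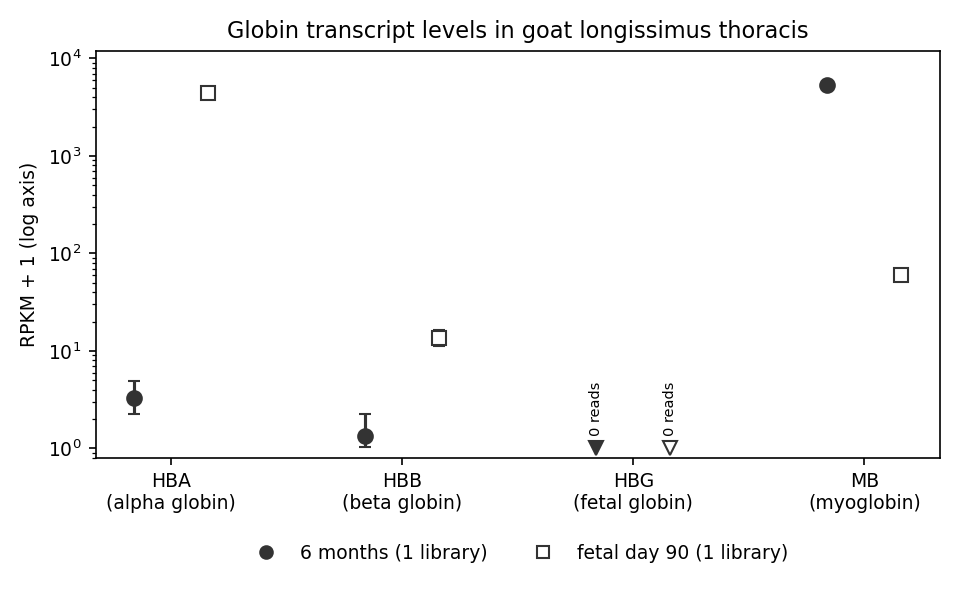
RPKM + 1 (vertical log axis) of the 4 globin transcripts in the 6-month library (filled) and the fetal day 90 library (open), with exact Poisson 95% intervals of the read count that are often smaller than the symbol. MB is high at 6 months (RPKM 5357) and HBA is high in the fetal library (RPKM 4464), while HBG had 0 reads in both, drawn as triangles at the foot of the axis.

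HBA, the alpha chain shared by fetal and adult hemoglobin, had 13 reads in the 6-month library (exact Poisson 95% interval 6.92 to 22.2) and 35227 reads in the fetal library (34860 to 35597). Its share of all unique reads was 0.000142% in the 6-month library and 0.275% in the fetal library. With 1 library per stage, intervals here and below cover counting error only. PCR copies are not separate molecules, and the intervals do not allow for them. By RPKM, HBA ranked 7143 of 10850 listed accessions at 6 months, under the median accession. It ranked 26 of 11393 in the fetal library, where its level was 542 times the median RPKM of listed accessions. The 35227 fetal reads correspond to 25144 reads at the total of the 6-month library, against the 13 found. The read share was 1934-fold lower at 6 months, with an exact conditional binomial 95% interval of 1131 to 3633.

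HBB, the beta chain named for adult hemoglobin, had 2 reads in the 6-month library (interval 0.242 to 7.22) and 102 reads in the fetal library (83.2 to 124). Per length, it stood at an RPKM of 0.346 at 6 months and of 12.6 in the fetal library. HBB was thus not among the abundant transcripts of the fetal library, where it ranked 4505 of 11393 and lay at 1.53 times the median RPKM. At 6 months it ranked 9543 of 10850. At the 6-month total, the 102 fetal reads correspond to 72.8 reads. The read share was 36.4-fold lower at 6 months, and the interval of 9.82 to 305 is wide because it rests on 2 reads. HBB lay on the same side as HBA, at a much lower level in the fetal library.

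HBG, the chain named for fetal hemoglobin, was listed in neither library. The lists hold only accessions with at least 1 read and their counts sum to the stated totals, so HBG had 0 reads. A count of 0 allows a share of up to 3.28e-05% in the 6-month library and 2.34e-05% in the fetal library (3 reads of the total, a one-sided limit). The upper end of the two-sided exact Poisson 95% interval, as used for the other members, is 3.69 reads. Its length is not in the lists, and no RPKM limit was set. The fetal library thus had many alpha chain reads without reads on the HBG accession. How the authors' count of unique reads treats reads shared by near-identical globin genes is not given. Alpha-type and beta-type genes each form families of close copies, so the split between HBB, HBG and other beta-type copies is uncertain. How fully goat reads of each chain align to these cattle transcripts is not given either and was not tested. The counts of HBB and HBG, and ratios to them, therefore hold for these accessions and not for all beta-type chains of the goat. In the same way, the counts of HBA hold for its accession and not for all alpha-type chains. The counting intervals do not cover such a loss.

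The alpha and beta chains were far from equal on these accessions. Per length, HBA was 6.68 times HBB at 6 months, from 13 and 2 reads (95% interval 1.51 to 61.0). In the fetal library HBA was 355 times HBB (292 to 435). The ratio of HBA to HBB was 53.1-fold lower at 6 months than in the fetal library (exact conditional 95% interval 5.74 to 239). The counting interval left out an equal ratio, but HBA was picked for its fetal excess, so nothing is read from the direction. The size of the change was known only within a wide range at 15 hemoglobin reads in the 6-month library.

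MB, the oxygen store of muscle fibres, had 53880 reads in the 6-month library (interval 53426 to 54337) and 840 reads in the fetal library (784 to 899). The MB share of unique reads was 0.589% in the 6-month library and 0.00656% in the fetal library. By RPKM it ranked 16 of 10850 at 6 months, at 1015 times the median of listed accessions. In the fetal library it ranked 1210 of 11393, at 7.24 times the median. MB was therefore above most listed transcripts already in the fetal muscle, 89.4% of which had a lower RPKM. The read share was 89.9-fold higher at 6 months (95% interval 83.9 to 96.3).

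Set against each other within a library, MB and HBA changed places, and MB and HBB did not. At 6 months MB was 2321 times HBA per length (95% interval 1357 to 4359). In the fetal library the order was the other way round, with HBA at 74.9 times MB (69.9 to 80.3). MB was above HBB in both libraries, 15503 times at 6 months (4291 to 128014) and 4.74 times in the fetal library (3.85 to 5.88). Over HBA and HBB together, hemoglobin had an RPKM of 2.65 at 6 months, from 15 reads. In the fetal library this sum was 4476, from 35329 reads, of which 35227 were of HBA. The ratio of MB to this sum was 17.21 log2 units higher at 6 months, and such a ratio within a library does not depend on how the libraries are scaled to each other. These ratios show unequal change and not which of the transcripts changed.

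For comparison with other transcripts, the stage difference of each accession was taken on the log2(RPKM + 1) scale, 6 months minus fetal. The added 1 understates the change of low transcripts. Over the 9705 accessions that reached an RPKM of 1 in at least one library, 918 were higher at 6 months by at least 1 log2 unit (9.46%) and 3411 were lower by as much (35.1%). All accessions together leaned toward the fetal library, with a median difference of -0.61 log2 units (interquartile range -1.30 to 0.14). After centring on the median ratio, which removes a shift of -0.58 log2 units, 1629 were higher (16.8%) and 2033 were lower (20.9%). Of the members, MB was among those higher, and HBA and HBB were among those lower. Nothing is read from this count, since the members were chosen on the same libraries.

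HBA had the lowest of the 9705 differences, -10.40 log2 units. For HBB the difference was -3.34 log2 units, and 203 accessions, itself included, lay at or under it. Without the added 1, the log2 ratio of HBB was -5.19, because its RPKM at 6 months was under 1. MB was at 6.47 log2 units, and 7 accessions, itself included, lay at or above it. Relative to the general shift all 3 kept their direction, at -9.90, -2.99 and 7.04 log2 units for HBA, HBB and MB after centring on the median ratio.

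**Figure D2:**
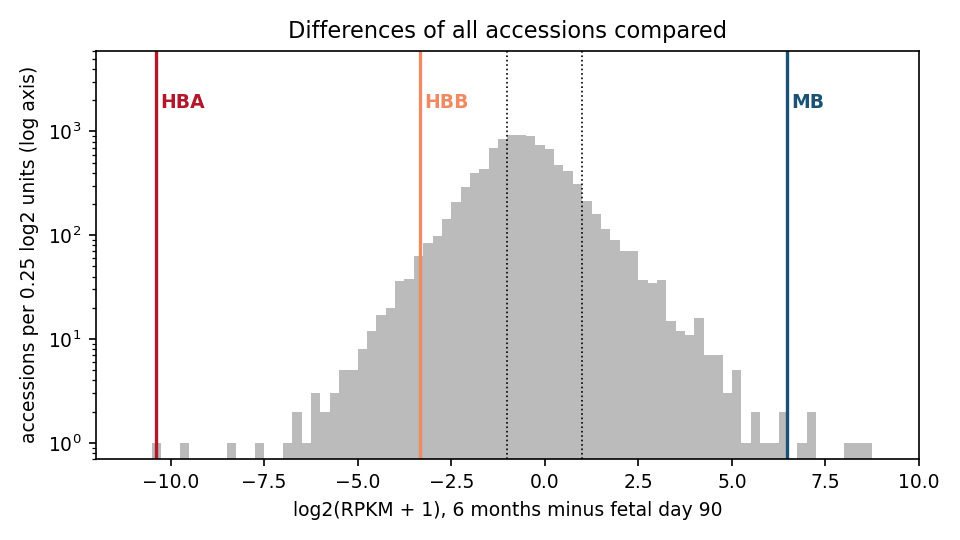
Number of accessions (vertical log axis) by difference in log2(RPKM + 1), 6 months minus fetal day 90, for the 9705 accessions compared; vertical coloured lines mark HBA, HBB and MB and dotted lines mark a difference of 1 log2 unit in either direction. HBA lies at the lower end (-10.40), MB near the upper end (6.47) and HBB in the lower flank (-3.34).

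Few transcripts of high level in either library were low in the other, though the cut-off for low differed between the directions. At 6 months 93 accessions reached an RPKM of 1000, and 9 of them, MB included, lay under 100 in the fetal library. Of the 93, 2 lay under 10 there, and MB, at 59.6, was not among them. In the fetal library 116 accessions reached an RPKM of 1000, and 3 of them, HBA included, lay under 10 at 6 months. MB was the only accession that combined its 6-month level or a higher one with its fetal level or a lower one. The same was true of HBA for its fetal level or higher and its 6-month level or lower. Nothing is read from this, since the cut-offs were the members' own values and HBA was picked for its fetal excess.

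**Figure D3:**
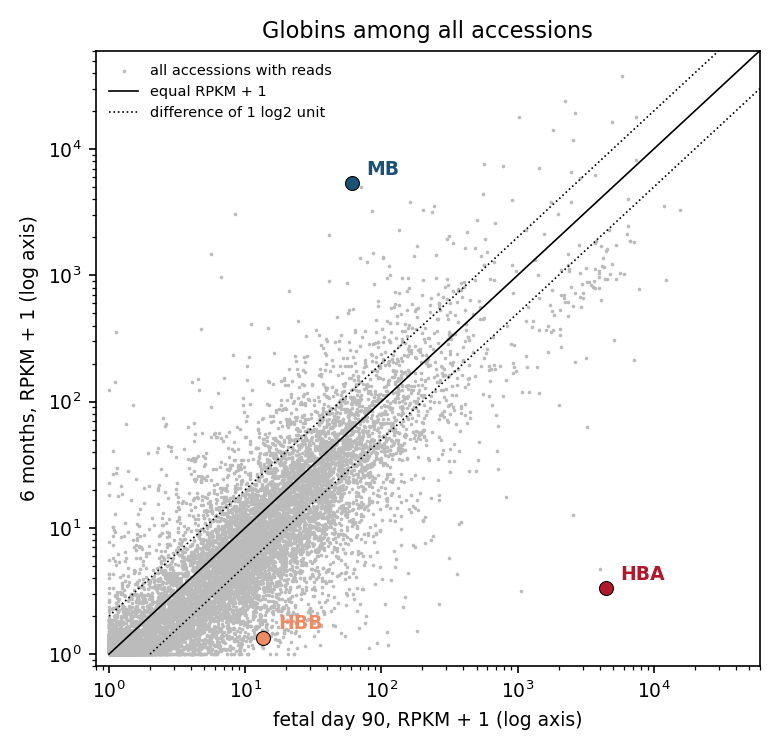
RPKM + 1 of every accession with reads in either library, with the 6-month library on the vertical log axis and the fetal day 90 library on the horizontal log axis; the solid line marks equal values and the dotted lines a difference of 1 log2 unit. MB lies far above the line (RPKM 5357 at 6 months, 59.6 in fetal muscle), and HBA lies far under it (RPKM 2.31 at 6 months, 4464 in fetal muscle).

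Likeness of pattern was measured as the gap between differences over the 2 libraries, among the 963 other accessions that reached an RPKM of 100. Nearest to HBA was NM_001075149, with an RPKM of 3.70 at 6 months and 4009 in the fetal library, a gap of 0.66 log2 units. Next came NM_001040479, with an RPKM of 2.16 at 6 months, one of 1062 in the fetal library and a gap of 2.004 log2 units. No other accession of this level lay within 0.5 log2 units of HBA, and 3 lay within that distance of MB. Since HBA had the lowest difference of all accessions compared, others could lie on its upper side only. Nothing is read from its lack of near neighbours. Nearest to MB was NM_001101883, with an RPKM of 374 at 6 months, one of 3.75 in the fetal library and a gap of 0.16 log2 units. It was followed by NM_174117, with an RPKM of 5012 at 6 months, one of 69.4 in the fetal library and a gap of 0.31 log2 units. NM_174117 thus matched MB in level as well as in difference. The lists do not pair these accessions with gene names, and with 1 library per stage this likeness rests on a single difference.

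The reads of a transcript did not all come from a single position, but how evenly they were spread along it is not given. Reads on HBA covered 57.0% of its 616 bases at 6 months, 351 bases from 13 reads, and 89.9% in the fetal library. For HBB the 2 reads at 6 months covered 180 of 633 bases, that is without overlap at a read span of 90 bases, and the 102 fetal reads covered 94.2%. MB was covered over 85.2% of its 1100 bases at 6 months and over 84.3% in the fetal library.

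MB and HBA were left partly uncovered in spite of deep reading. For MB, 163 bases at 6 months and 173 bases in the fetal library had no read, although the 6-month library held 53880 reads of it and the fetal library 840. For HBA, 62 bases had no read at 35227 fetal reads. Many deeply read accessions had such gaps. Among those with at least 1000 read-bases per base, median coverage was 94.7% over 74 accessions at 6 months and 92.5% over 126 in the fetal library. In that class 14 accessions at 6 months were covered less than MB, and 46 in the fetal library were covered less than HBA. HBB, at 14.5 read-bases per base in the fetal library, was covered more fully than the median of 83.0% over 1915 accessions read to a depth of 10 to 20.

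**Figure D4:**
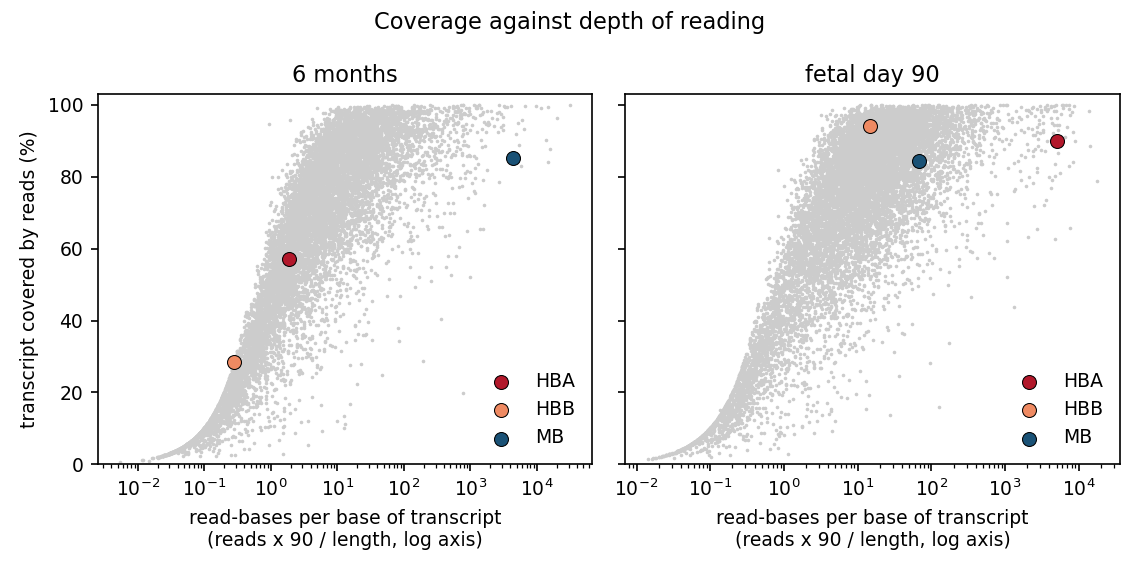
Percentage of each transcript covered by reads against read-bases per base of transcript (reads times 90 divided by length, horizontal log axis), with all accessions in grey and HBA, HBB and MB coloured, for the 6-month library (left) and the fetal day 90 library (right). MB stays near 85% at both depths (85.2% at 6 months, 84.3% in fetal muscle), and HBA reaches 89.9% in the fetal library.

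The libraries differed in depth, with 9144138 unique reads over 10850 accessions at 6 months and 12811117 over 11393 in the fetal library. RPKM takes this difference out, and at these depths counting error was small for MB in both libraries and for HBA in the fetal library. Blood content of the tissue pieces was not measured. Marker genes of red cells, muscle fibres and other cell types could not be identified by name. The part of red cells in the HBA and HBB values was therefore not tested, and the tissue label was not checked against markers. Stage, animal, sampling and library preparation cannot be told apart with 1 library for each stage.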

How the data were processed

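The authors deposited, per the file headers, a list of transcript accessions for each library with counts of unique reads, transcript length, the percent of the transcript covered and the RPKM. Per the labels' protocols, Trizol was used for RNA extraction and Illumina's standard protocols for the libraries. Aligner, strand, mismatch rules and build were not given in the sources used here. Deposited counts summed to the header totals, and RPKM was recovered from them within 1e-06 for all accessions. Each accession with 1 read had 90 covered bases within rounding, taken as the read span.

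From these values, differences of log2(RPKM + 1), ranks, read ratios and exact intervals (Poisson, conditional binomial, conditional odds ratio) were computed in Python 3.11.15 (SciPy 1.17.1, NumPy 2.4.6, pandas 2.3.3), and figures were drawn with matplotlib 3.10.9. The calculation was tested on simulated data with counting error only and with changes smaller than those of the members. Such a test checks the arithmetic and not the values reported here. No count model was fitted, since each group is 1 library. The members, lists and the rule for accessions like HBA and MB (an RPKM of at least 100, the 2 nearest differences) were chosen with earlier results of these data known. Lists of red cell, heme, iron, oxidative muscle, hypoxia and cell type marker genes were not used, because 0 of the 11663 accessions matched the goat table. Alternatives covered pseudocount, scaling, minimum level and threshold.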

Additional observations from a re-analysis of the deposited data

How the results depend on the processing

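HBA, HBB, MB and the summed hemoglobin chains were each run under 7 alternatives of pseudocount and scaling. All kept their direction and a size of at least 1 log2 unit. A pseudocount cannot reverse a direction, and each scaling multiplied a library by a common factor that was small beside these differences. Nothing is therefore read from the kept direction. HBA ranged from -10.86 to -9.26 log2 units, HBB from -4.83 to -1.72, and MB from 6.37 to 7.04. With a pseudocount of 5, which damps low values by construction, HBA moved to -9.26, the summed chains to -9.19 and HBB to -1.72. The shift of HBB was smaller than the width of its read ratio's counting interval on that side, and the other shifts were larger. MB moved to 6.58 with transcripts-per-total scaling, 7.04 with centring on the median ratio, 7.02 with the trimmed mean ratio and 6.70 with totals without the 50 most abundant accessions. The cause was not tested. The changes in the ratios of MB to hemoglobin and of HBA to HBB stayed within their counting intervals under 3 alternatives each, of which the covered length was chosen after seeing the data. For HBA to HBB, unique reads and covered length could not move the value of -5.73, since both lengths cancel between the libraries. Only the pseudocount of 1 could, and it gave -7.06 log2 units. For MB to hemoglobin the lengths nearly cancel (17.20 and 17.22 against 17.21), and the pseudocount gave 16.73.

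The number of accessions higher at 6 months (918) became 1629 with median centring, 1601 with the trimmed mean and 339 with a threshold of 2 log2 units. The number lower (3411) became 2033, 2069 and 1051 under the same settings, and 1811 with a pseudocount of 5. HBG had 0 reads in both libraries and gave no value under any setting. No paired analysis was possible because each stage has 1 library, and for the same reason no library could be left out.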
